A study of Mus musculus with 8 samples.

Results

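Peaks of 5-hydroxymethylcytosine (5hmC) called on day 5 of reprogramming with the OSNK method were set against those called on day 5 with the OySyNyK method. The OSNK list held 92762 peaks and the OySyNyK list 70592, together 163354 of the 684512 peaks in the 8 lists of the series. A peak was shared when it had at least 1 bp in common with a peak of the other day 5 list, and method-specific otherwise. By this rule 49454 OSNK peaks and 27419 OySyNyK peaks were method-specific, and 43308 and 43173 were shared.

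All samples were mouse genomic DNA from which fragments with 5hmC had been captured through a chemical tag. The groups used were mouse embryonic fibroblasts (MEF), intermediates of both methods at days 1, 3 and 5 (D1, D3 and D5 in the titles, read as days), and an end point of induced pluripotent stem cells (iPSC). Each group had 1 library. The protocols name OG2-MEFs, fibroblasts with a green fluorescent Oct4 reporter, and vitamin C and leukaemia inhibitory factor in the medium used to generate iPSCs. OSNK is known from the study as Oct4, Sox2, Nanog and Klf4, and OySyNyK as the same factors with a YAP transactivation domain on Oct4, Sox2 and Nanog. The title of the iPSC library carries the OySyNyK factors, so no iPSC list of the OSNK method was compared. Those iPSCs were kept on fibroblast feeder cells. Strain, age and the number of cultures behind a library were not given in the sources used here.

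5hmC is made from 5-methylcytosine by the TET enzymes and is a step on the way to unmethylated cytosine. In pluripotent cells it is known from enhancers, gene bodies and promoters of intermediate CpG content. Vitamin C is known to raise TET activity. In such a bulk sample, fewer cells with the mark at a site and less of the mark per cell cannot be told apart.

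Each peak has a score deposited by the authors. MACS derives it from the log10 of a p-value, multiplied by -10. It started at 50 in both lists and rises with read depth as well as with enrichment. Depth is unknown, so a score has no common scale between lists. Where scores of several lists are given side by side, or the same score classes are used for both methods, they describe each list, and values at equal ranks are given as well for the iPSC overlap. With 1 library on each side there was no replicate error and no test was made. Shares are given with exact (Clopper-Pearson) 95% intervals, which cover counting error along the genome only. The lists are in a mouse assembly other than the annotated GRCm38 reference, so peaks were not assigned to genes, and coordinates are those of the lists, counted from 1.

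More of the OSNK list than of the OySyNyK list had no counterpart. Method-specific peaks made up 53.3% of the OSNK peaks (95% interval 53.0 to 53.6) and 38.8% of the OySyNyK peaks (38.5 to 39.2). They covered 31.6 Mb, or 45.0% of the sequence in OSNK peaks, and 19.6 Mb, or 34.0% of that in OySyNyK peaks. The shares were nearly equal at equal list length. When the OSNK list was reduced to its 70592 best-scoring peaks, the shares were 46.5% and 46.1%. The 22170 OSNK peaks left out by this step scored 60.83 or less, and 16629 of them were OSNK-specific in the full list.

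Few peaks sat at the edge of the rule. Among method-specific peaks, 4.42% with OSNK and 5.10% with OySyNyK lay less than 200 bp from a peak of the other list, and 18.4% and 21.0% lay less than 1 kb away. Shared peaks mostly matched one another closely. Of 44852 overlapping pairs, 38981 joined 1 peak with 1 peak, and the median overlap in these was 90.5% of the OSNK peak and 91.1% of the OySyNyK peak. Under 100 bp were shared in 0.467% of them. Their median widths were 747 bp with OSNK and 738 bp with OySyNyK. Over these pairs, which come from the same 2 libraries, the rank correlation was 0.62 for width and 0.42 for score (Spearman's rho).

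Method-specific peaks were narrower and scored lower than the shared peaks of the same list. The median width was 575 bp for OSNK-specific peaks against 757 bp for shared OSNK peaks, and 633 bp for OySyNyK-specific peaks against 749 bp for shared ones. Peaks of 1 kb or more made up 8.22% of the OSNK-specific and 13.5% of the OySyNyK-specific set, against 27.6% and 26.5% of the shared sets. The widest OSNK-specific peak had 3863 bp and the widest OySyNyK-specific peak 4045 bp, while shared peaks reached 11187 bp and 8309 bp. Median scores were 69.1 and 107 for specific and shared OSNK peaks, and 64.9 and 88.8 for specific and shared OySyNyK peaks. Scores of 250 or more were found for 201 OSNK-specific peaks (0.406%) and 42 OySyNyK-specific peaks (0.153%). Among all OSNK peaks, the specific share fell from 75.7% of those under 500 bp to 7.91% of those of 2 kb or more. With OySyNyK it fell from 55.8% to 12.0%. A peak was shared from 1 bp on, so a wide peak is more readily shared, and the part of this rule in these differences was not tested.

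**Figure D1:**
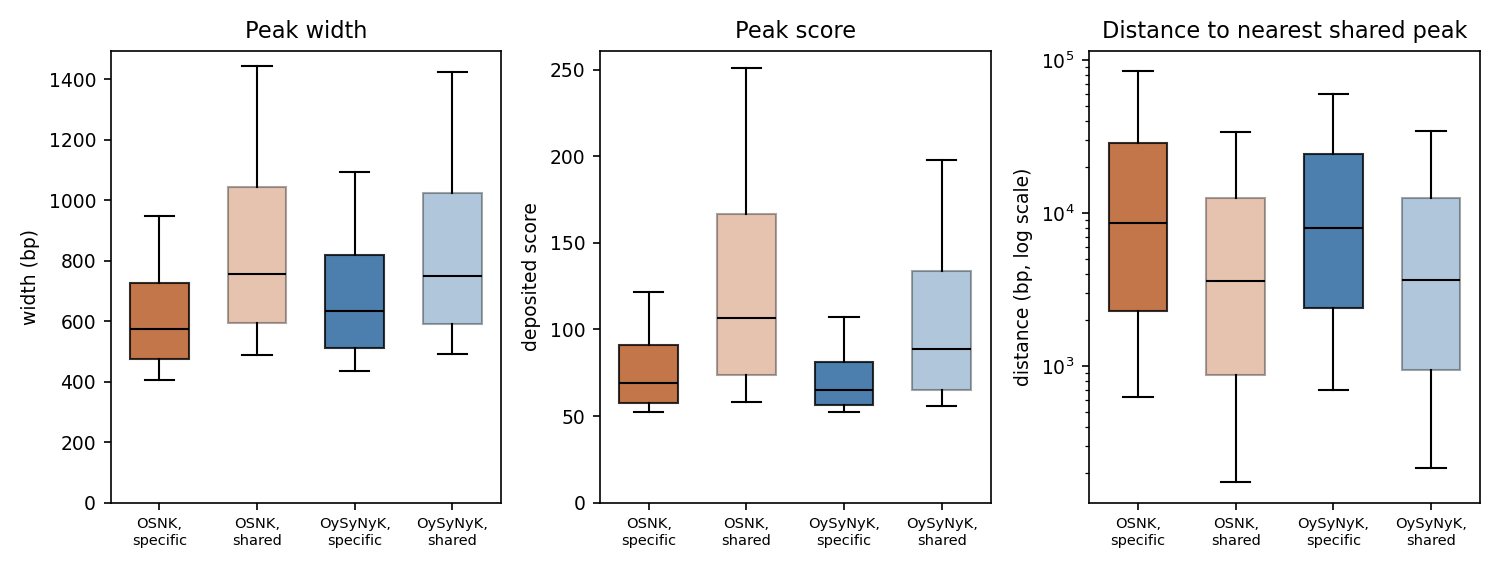
Width in bp (left), deposited score (middle) and distance to the nearest shared peak of the same list in bp on a log axis (right) for method-specific and shared day 5 peaks. Boxes run from the 25th to the 75th percentile with the median as a line and whiskers from the 10th to the 90th percentile; in each list the specific boxes sit lower in width and score and higher in distance than the shared ones (medians of 575 and 757 bp with OSNK).

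Most method-specific peaks stood in the neighbourhood of shared ones. The median distance to the nearest shared peak of the same list was 8630 bp for OSNK-specific and 7954 bp for OySyNyK-specific peaks. Shared peaks were closer to each other, with medians of 3592 and 3660 bp. Within 10 kb of a shared peak lay 53.3% of the OSNK-specific and 55.4% of the OySyNyK-specific peaks, and 91.4% and 94.8% lay within 100 kb. The median was higher for OSNK under 5 of 8 alternatives and lower under 3. With equal numbers at day 5 it was 9110 bp with OSNK and 9171 bp with OySyNyK. With scores of at least 100 both medians were longer, 21962 and 19781 bp, in the same order as in the full lists. Only 289 OSNK-specific and 66 OySyNyK-specific peaks lay 1 Mb or more from a shared peak. Peaks near a shared peak more often had a MEF peak too. This share was 27.4% under 1 kb and 15.5% at 100 kb or more with OSNK, and 29.1% and 19.6% with OySyNyK.

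The method-specific sets differed in their overlap with iPSC. An iPSC peak overlapped 28.8% of the OySyNyK-specific peaks (7901 of 27419, 95% interval 28.3 to 29.4) and 7.43% of the OSNK-specific peaks (3672 of 49454, 7.20 to 7.66). Over the whole lists the shares were 29.9% with OySyNyK and 18.1% with OSNK. Shared peaks had nearly the same value in both lists, 30.6% with OySyNyK and 30.4% with OSNK. Peaks found with OySyNyK alone were thus close to shared peaks in iPSC overlap, and peaks found with OSNK alone lay far below them. The difference between the specific sets was 21.4 percentage points, and lay between 18.5 and 22.4 over 8 alternatives. With scores of at least 100 in all lists the OSNK-specific share was 3.34%, and the OySyNyK-specific share 21.8%.

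Stronger OySyNyK-specific peaks were overlapped by iPSC peaks far more often than weak ones. The share was 21.2% for scores from 50 to below 60 (10257 peaks), 25.5% from 60 to 75, 34.1% from 75 to 100, 48.1% from 100 to 150 and 61.0% from 150 to 250 (648 peaks). Of the 42 with 250 or more, 34 had an iPSC peak, which is 81.0% (95% interval 65.9 to 91.4). OSNK-specific peaks rose only from 6.13% of 15622 to 12.6% of 2070 over the same classes below 250, and 25 of 201 (12.4%, 8.21 to 17.8) had one at 250 or more. At scores from 100 to 150, shared peaks had 34.5% with OySyNyK and 28.0% with OSNK. OySyNyK-specific peaks of that class thus lay above the shared peaks, with 95% intervals of 46.3 to 50.0 and 33.6 to 35.5. OSNK-specific peaks, at 9.16% (8.50 to 9.85), lay below theirs.

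**Figure D2:**
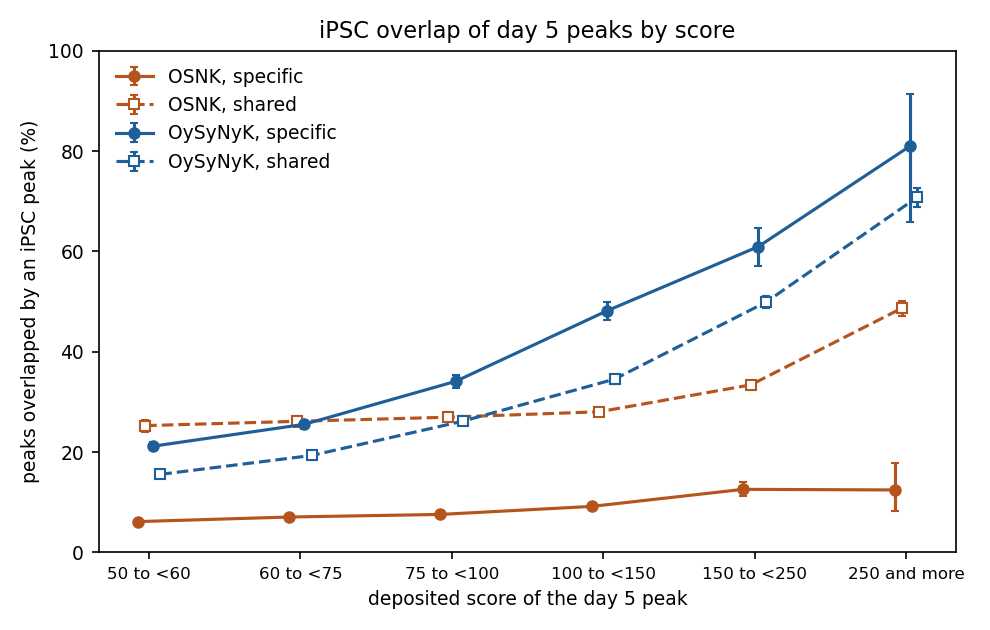
Share of day 5 peaks overlapped by an iPSC peak (percent) by class of the peak's deposited score, for method-specific (filled circles) and shared peaks (open squares) of each method, with exact 95% intervals as bars. The OySyNyK-specific share climbs from 21.2% to 81.0%, while the OSNK-specific share stays between 6.13% and 12.6%.

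The same held at equal ranks. In the best-scoring 25% of each list, 53.2% of the 2376 OySyNyK-specific and 11.2% of the 4980 OSNK-specific peaks had an iPSC peak. In the lowest 25% the shares were 21.1% and 6.29%. Of the 5000 best-scoring peaks of each list, 243 OSNK peaks (4.86%) and 217 OySyNyK peaks (4.34%) had no peak at all in the other full list. An iPSC peak overlapped 11.1% of these 243 (95% interval 7.45 to 15.8) and 71.0% of these 217 (64.4 to 76.9). With 20000 peaks from each list, 3763 and 3048 had no counterpart, and 11.96% and 51.5% of them had an iPSC peak. Peaks without a MEF peak gave similar values. At scores from 100 to 150, 8.54% of 5361 OSNK-specific and 49.6% of 1978 OySyNyK-specific peaks without a MEF peak had an iPSC peak.

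Width classes gave the same order. Among peaks under 500 bp, 4.40% of the OSNK-specific and 13.1% of the OySyNyK-specific ones were overlapped by an iPSC peak. From 1000 to 1500 bp the shares were 12.9% and 49.2%, and at 2 kb or more 15.1% of 119 (95% interval 9.22 to 22.8) and 81.7% of 180 (75.2 to 87.0). Wider peaks offer more sequence to overlap, and the part of width in these shares was not tested. Over classes of distance from shared peaks, the OySyNyK-specific set had 30.1% under 1 kb and 28.2% from 25 to 50 kb. At 100 kb or more it was 20.7% of 1415. The OSNK-specific set went from 8.96% to 6.53% and 3.27% over these classes.

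The sets lay closer together in their overlap with the fibroblast list. A MEF peak overlapped 19.9% of the OSNK-specific peaks (95% interval 19.6 to 20.3) and 22.3% of the OySyNyK-specific peaks (21.8 to 22.7). Over the whole lists 31.2% of OSNK and 35.5% of OySyNyK peaks had a MEF peak, and among shared peaks 44.1% and 43.9% did. In numbers the OSNK-specific set, from the longer list, held more, 9845 against 6101. With equal numbers at day 5 the specific sets were of similar size, 32825 with OSNK and 32568 with OySyNyK. A MEF peak then overlapped 21.5% and 23.6% of them. In the full lists, 966 of the 9845 and 1810 of the 6101 had an iPSC peak as well. Neither MEF nor iPSC had a peak at 74.6% of the OSNK-specific and 55.5% of the OySyNyK-specific peaks. Over the whole lists these shares were 58.8% and 46.6%, and among shared peaks 40.8% and 40.9%.

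Each method-specific peak was then traced back through MEF, day 1 and day 3 of its own method. A larger share of OySyNyK-specific than of OSNK-specific peaks was new on day 5, while over the whole lists this share was 21.5% with each method. OySyNyK-specific peaks were first seen in MEF for 22.3%, on day 1 for 17.5%, on day 3 for 18.7% and on day 5 for 41.6% (95% interval 41.0 to 42.2). For OSNK-specific peaks these shares were 19.9%, 33.3%, 17.0% and 29.8% (29.4 to 30.2). Shared peaks were older, with only 12.0% with OSNK and 8.76% with OySyNyK first seen on day 5. They also scored higher and were wider. At scores from 100 to 150, 10.6% of OSNK-specific and 6.09% of shared OSNK peaks were first seen on day 5. With OySyNyK these shares were 21.1% and 3.22%. The part of score and width in the difference between specific and shared peaks was not tested. A peak absent from MEF but present on days 1, 3 and 5 was the second most frequent history among OSNK-specific peaks, 13181 or 26.7%, and accounted for 3519 or 12.8% of the OySyNyK-specific ones. The OSNK list of day 1 was longer, with 116302 peaks against 100951, and that of day 3 covered more sequence, 98.2 against 74.3 Mb. Longer or wider lists offer more sequence to overlap, and their part in the difference was not tested. With 54938 peaks in every list, the day 5 shares were 33.3% with OSNK and 48.8% with OySyNyK.

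Peaks that were new on day 5 scored low in both sets, with medians of 61.3 for OSNK-specific and 61.2 for OySyNyK-specific peaks. Their iPSC overlap still differed, 7.78% of 14740 with OSNK (95% interval 7.35 to 8.23) against 29.8% of 11406 with OySyNyK (28.9 to 30.6). Among OySyNyK-specific peaks the highest share, 32.0%, was found for those first seen on day 3, and the lowest, 22.1%, for those first seen on day 1. OSNK-specific peaks first seen on day 1 also had the lowest share of their set, 5.25%. Peaks present in MEF, absent on days 1 and 3 and present again on day 5 were rare. They were 602 OSNK-specific (1.22%) and 986 OySyNyK-specific peaks (3.60%), against 1.34% and 1.96% of the whole lists. These specific peaks had an iPSC peak in 17.9% and 41.5%. All peaks of the lists with this history had one in 33.3% with OSNK and 40.5% with OySyNyK.

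Method-specific peaks had an earlier peak of the other method less often than their lists as a whole, where 69.8% of OSNK and 66.0% of OySyNyK peaks had one on day 1 or day 3. Specific peaks were chosen for lacking a day 5 peak of the other method. The part of this choice in the lower shares was not tested. Of the OSNK-specific peaks, 51.8% (95% interval 51.3 to 52.2) overlapped an OySyNyK peak of day 1 or day 3, and 25.2% had one on both days. Of the OySyNyK-specific peaks, 33.6% (33.1 to 34.2) overlapped an OSNK peak of day 1 or day 3, and 14.1% had one on both. The share was highest for the oldest peaks. For OSNK-specific peaks it was 88.5% of those first seen in MEF, 61.8% of those of day 1, 38.6% of those of day 3 and 23.5% of those of day 5. OySyNyK-specific peaks gave 72.2%, 54.1%, 20.0% and 10.5%. Without a peak in MEF, in iPSC and on days 1 and 3 of both methods were 10494 OSNK-specific (21.2%) and 7018 OySyNyK-specific peaks (25.6%). Over the whole lists 11821 OSNK (12.7%) and 8338 OySyNyK peaks (11.8%) had none of these either. Among shared peaks, which by definition overlap the other day 5 list, it was 3.06% in either list.

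**Figure D3:**
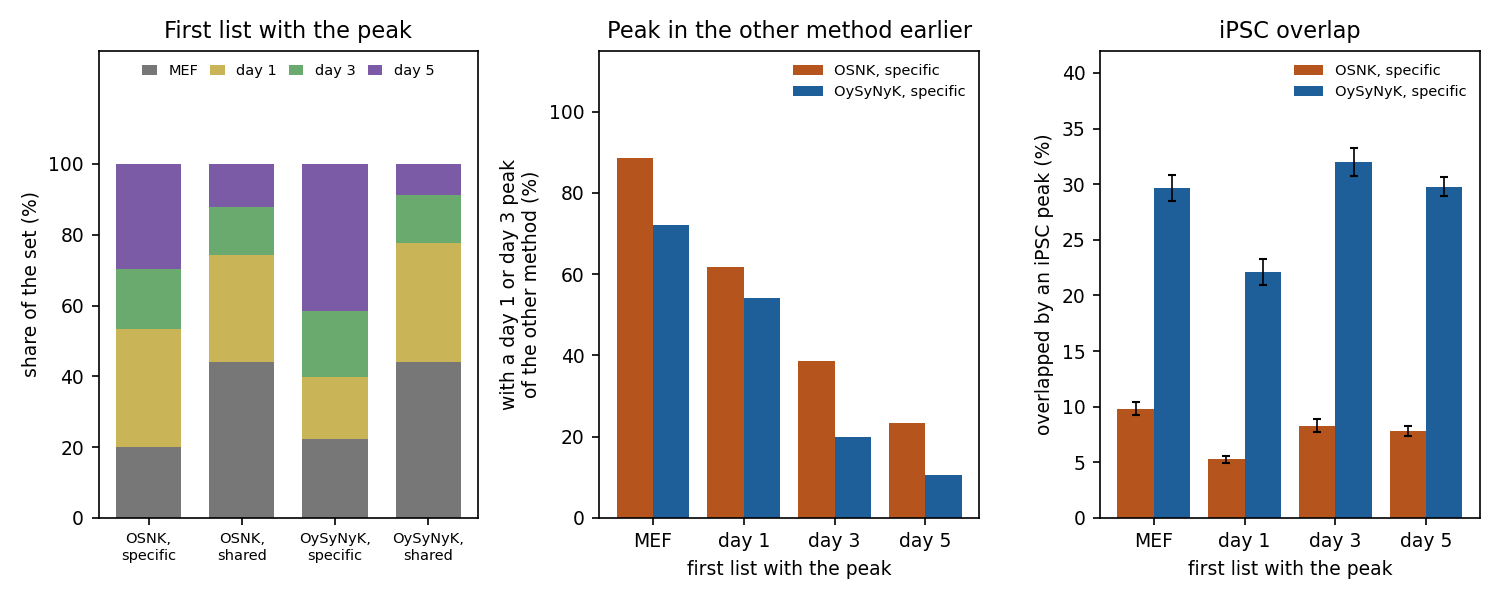
Left, the share of each set of day 5 peaks (percent) by the first list with an overlapping peak along its own method. Middle and right, for method-specific peaks of each such age, the percent with a day 1 or day 3 peak of the other method and the percent overlapped by an iPSC peak (bars on the right are exact 95% intervals). New peaks of day 5 make up 41.6% of the OySyNyK-specific and 29.8% of the OSNK-specific set, and iPSC overlap is higher for OySyNyK at every age.

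Chromosomes were alike in the order of the methods. The OSNK-specific share of the list lay between 47.1% and 61.1% over the autosomes and the OySyNyK-specific share between 35.4% and 42.2%. On X, with 360 OSNK and 226 OySyNyK peaks, the shares were 70.6% (95% interval 65.6 to 75.2) and 53.5% (46.8 to 60.2). OSNK-specific outnumbered OySyNyK-specific peaks 1.80 times in all, from 1.34 times on chromosome 5 and 1.36 times on chromosome 11 to 2.43 times on chromosome 3 and 2.60 times on chromosome 6. These ratios, like the other values by chromosome, are of the full lists. With equal numbers at day 5 the specific sets held 32825 and 32568 peaks in all. The iPSC overlap of OySyNyK-specific peaks was above that of OSNK-specific peaks on 20 of 20 chromosomes, which all come from the same libraries. The difference was smallest on chromosome 13, with 10.5% against 2.40%, and largest on chromosome 12, with 43.3% against 15.0%. The MEF overlap was also higher for OySyNyK-specific peaks on 20 of 20, by 0.318 to 7.39 percentage points. The iPSC list itself held 860 peaks on chromosome 13, 640 on chromosome 16 and 4435 on chromosome 12.

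**Figure D4:**
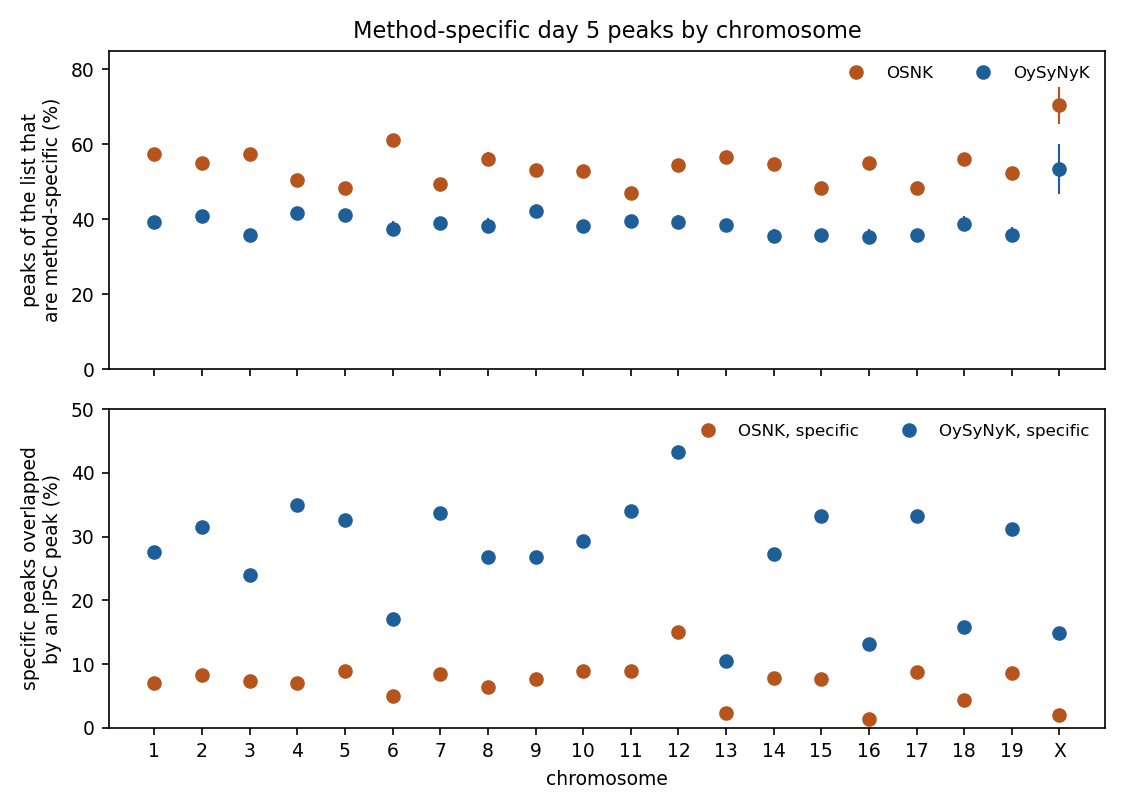
Top, percent of the day 5 peaks of each list that are method-specific, by chromosome, with exact 95% intervals as lines. Bottom, percent of the method-specific peaks overlapped by an iPSC peak; the OySyNyK point lies above the OSNK point on all 20 chromosomes, and both are low on chromosomes 13 and 16.

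OySyNyK-specific peaks lay further towards the distal chromosome ends, as shared peaks did. Within 20 Mb of the last peak of a chromosome were 5.69% (under 5 Mb) and 19.3% (5 to 20 Mb) of the OySyNyK-specific peaks, and 5.62% and 19.2% of the shared OSNK peaks. For OSNK-specific peaks these shares were 4.05% and 14.5%. More than 50 Mb from the end were 55.7% of the OSNK-specific and 49.5% of the OySyNyK-specific peaks.

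Specific peaks were spread over most of the genome that had day 5 peaks. Of 15522 regions of 100 kb with a day 5 peak, 15030 held specific peaks. In 8772 they were of both methods, in 4750 of OSNK alone and in 1508 of OySyNyK alone. With specific peaks in nearly all regions, the number of regions with both is no measure of a common location. The correlation of the specific peak counts over these regions was 0.26 by rank (Spearman) and 0.21 by value (Pearson), with both lists sharing the density of the region. These region counts use the full lists, with 49454 OSNK-specific and 27419 OySyNyK-specific peaks. With equal numbers at day 5 the specific sets held 32825 and 32568 peaks. The part of list length in the region counts was not tested. An excess of at least 5 OSNK-specific peaks was found in 2071 regions and of at least 5 OySyNyK-specific peaks in 379. In the former, mean iPSC cover by peaks was 2.67%, against 2.59% over all these regions, and mean MEF cover was 6.28% against 3.90%. In the latter, both were high, 9.27% in iPSC and 8.72% in MEF. On days 1 and 3, cover in these 2071 regions was 11.0% and 14.5% with OSNK and 8.69% and 8.44% with OySyNyK. Over all 15522 regions OSNK cover was also above OySyNyK cover on these days, with 5.72% and 6.26% against 4.87% and 4.76%. In the 379 regions, OySyNyK cover was 10.8%, 13.0% and 13.0% over the 3 days, and OSNK cover 9.18%, 9.92% and 6.66%. Both groups of regions were chosen on day 5 peaks, so the order of the methods on that day follows from the choice.

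In the 5 regions with the largest OSNK excess, cover by peaks on days 3 and 5 of OSNK exceeded MEF and iPSC cover. The regions were chosen on day 5 peaks, so high OSNK and low OySyNyK cover on that day follows from the choice. On chromosome 19, positions 16500001 to 16600000 held 35 OSNK-specific and 0 OySyNyK-specific peaks. This is the region of the highest-scoring isolated OSNK-specific peak. Cover there was 1.90% in MEF, 12.0%, 34.3% and 32.4% on days 1, 3 and 5 of OSNK, 2.86%, 4.05% and 2.10% on those of OySyNyK, and 2.89% in iPSC. The adjoining region, 16600001 to 16700000, had 25 and 0 specific peaks and was covered to 17.0% and 2.00% on day 5. On chromosome 2, positions 52800001 to 52900000 had 32 and 0, of which 8 OSNK-specific peaks overlapped a MEF peak. On chromosome 4, positions 87600001 to 87700000 had 26 and 1, with day 5 cover of 22.8% and 3.42% and iPSC cover of 0.467%. On chromosome 8, positions 120900001 to 121000000 had 27 and 2, with day 5 cover of 21.4% and 4.70% and iPSC cover of 0.430%. With equal numbers of peaks at day 5, the OSNK-specific peaks of these regions numbered between 15 and 29 and the OySyNyK-specific ones at most 2.

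In the 5 regions with the largest OySyNyK excess, iPSC cover was above MEF cover in 3 and below it in 2. High OySyNyK and low OSNK cover on day 5 again follows from the choice of the regions. On chromosome 4, positions 140300001 to 140400000 held 18 OySyNyK-specific and 0 OSNK-specific peaks, and 9 of the 18 overlapped an iPSC peak. Cover went from 5.09% in MEF to 8.03%, 16.9% and 19.8% with OySyNyK and 13.8% in iPSC, and with OSNK it was 1.84% on day 5. On chromosome 5, positions 116000001 to 116100000 had 15 and 1 specific peaks, and 13 of the 15 overlapped an iPSC peak. OySyNyK cover there was 14.5%, 23.1% and 28.9% over the days and iPSC cover 36.0%, while OSNK cover lay between 9.75% and 12.3%. On chromosome 11, positions 115100001 to 115200000 had 16 and 1, with 6 of the 16 in iPSC. In the other two regions MEF cover was above iPSC cover. On chromosome 18, positions 74100001 to 74200000 had 14 and 1, and 1 of the 14 overlapped an iPSC peak and 5 a MEF peak. On chromosome 11, positions 98900001 to 99000000 had 16 and 3, with 4 of the 16 in iPSC and cover of 14.1% in MEF and 8.18% in iPSC. These 5 regions each held 14 to 18 OySyNyK-specific peaks with equal numbers at day 5, and 3 to 9 with scores of at least 100.

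**Figure D5:**
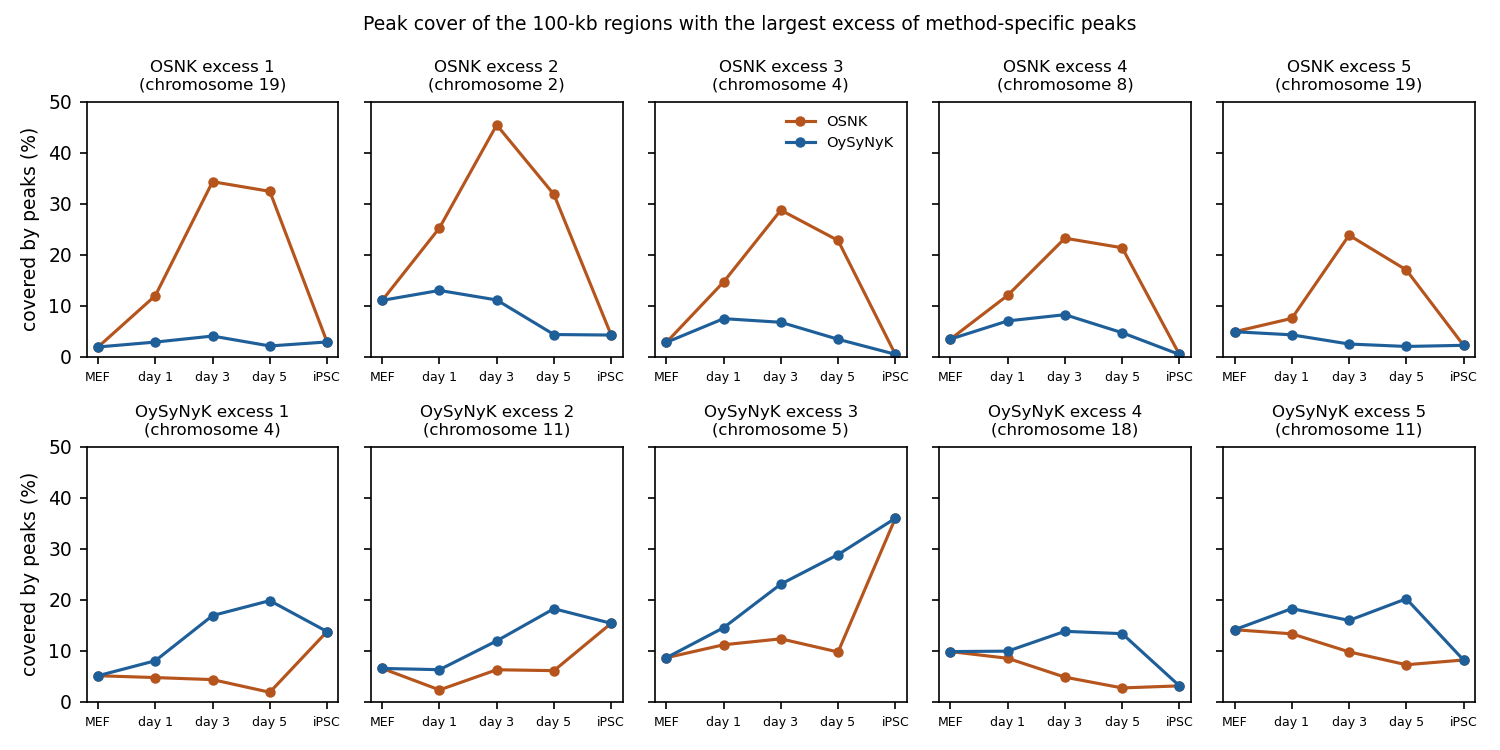
Percent of each 100-kb region covered by peaks in MEF, on days 1, 3 and 5 of OSNK and OySyNyK, and in iPSC, for the 5 regions with the largest excess of OSNK-specific (top) and OySyNyK-specific (bottom) day 5 peaks. MEF and iPSC are the same single libraries for both lines, and the iPSC are of the OySyNyK method. Regions were chosen on day 5 peaks, so the order of the methods on that day follows from the choice. OSNK cover in each panel of the top row is highest on day 3, and iPSC cover there is at most 4.24%. The whole OSNK list also covered most on day 3 (98.2 Mb, against 91.9 Mb on day 1 and 70.2 Mb on day 5). OSNK peaks in each top-row region were more numerous on day 5 than on day 3.

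Specific peaks also stood in runs, with no shared peak between them. Runs of at least 5 consecutive specific peaks of a list held 37.8% of the OSNK-specific and 17.1% of the OySyNyK-specific peaks, in 2535 and 758 runs. A list with a larger specific share has longer runs, so these numbers are no comparison of the methods. The longest OSNK run had 54 peaks over 4323 kb of chromosome 4, from 24724395 to 29047258, and 0 OySyNyK peaks of day 5. Along that stretch MEF had 28 peaks, OSNK 50 and 34 on days 1 and 3, OySyNyK 17 and 4, and iPSC 8. OySyNyK thus had few peaks there from day 3 on, and OSNK had more than OySyNyK on every day. Chromosome 4 as a whole held 5704 OSNK peaks on day 5, so 54 peaks over 4323 kb are not a dense stretch. A run of 39 OSNK peaks spanned 7142 kb of chromosome 6, from 58574661 to 65716438, with 5 OySyNyK peaks on day 5 after 31 and 18 on days 1 and 3. The third, of 34 peaks on chromosome 1 from 15629450 to 16093561, had 3 MEF peaks and none of its 34 members overlapped a MEF or an iPSC peak.

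The longest OySyNyK run had 19 peaks in 107 kb of chromosome 4, from 140331561 to 140438255, inside and beside the region with the largest OySyNyK excess. OSNK had 3, 1 and 0 peaks there on days 1, 3 and 5, OySyNyK 8, 21 and 19, and iPSC 21. A run of 18 peaks on chromosome 18, from 49688849 to 50183804, had 1 peak in iPSC and 14 in MEF. The run of 15 peaks on chromosome 12, from 87726227 to 87935859, lay in a stretch with 4 MEF and 32 iPSC peaks. OSNK had 5, 1 and 2 peaks there over the days and OySyNyK 7, 14 and 15.

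Some single peaks were far from any peak of the other method. At least 10 kb from the other day 5 list, and without a peak of the other method on day 1 or day 3, were 10015 OSNK-specific (20.3%) and 5189 OySyNyK-specific peaks (18.9%). An iPSC peak overlapped 4.86% of the former and 32.5% of the latter. The highest-scoring of the OSNK peaks lay on chromosome 19 from 16534554 to 16538416, in the region with the largest OSNK excess, and was 3863 bp wide. It scored 901 on day 5, rank 41 in its list, after 59.8 on day 1 and 788 on day 3, and the iPSC peak it overlapped scored 71.7. The next were on chromosome 7 from 81623207 to 81624611, with scores of 181, 333 and 433 over the days, and on chromosome 3 from 99038328 to 99040112, with 79.2, 212 and 354. A peak on chromosome 13 from 5974935 to 5975611 scored 375, 408 and 331, and one on chromosome 14 from 104460223 to 104461347 scored 113, 179 and 284. All 5 were first seen on day 1 of OSNK, none overlapped a MEF peak, and 2 overlapped an iPSC peak.

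The 5 highest-scoring isolated OySyNyK peaks all overlapped an iPSC peak. The first lay on chromosome 4 from 118220500 to 118221563, scored 775 on day 5, rank 30 in its list, and 678 in iPSC, after 243 in MEF and 199 on day 3. On chromosome 1, the peak from 120732085 to 120734846 scored 70.3 in MEF, 152 on day 3, 383 on day 5 and 905 in iPSC. Another on that chromosome, from 121312455 to 121314995, scored 61.5, 86.8, 335 and 390 in the same lists. These 3 peaks had no overlapping peak on day 1 of OySyNyK. The peak on chromosome 5 from 113214516 to 113215393 scored 176, 479 and 302 over the days and 160 in iPSC, without one in MEF. The last, on chromosome 2 from 169303239 to 169304168, appeared on day 3 with 50.2 and scored 295 on day 5 and 202 in iPSC.

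Seen from the end states, the methods divided the iPSC list unequally. Of the 54938 iPSC peaks, 24.0% were overlapped by both day 5 lists, 14.9% by OySyNyK alone (95% interval 14.6 to 15.2), 6.90% by OSNK alone (6.68 to 7.11) and 54.2% by neither. In the best-scoring 25% of the iPSC list, 21.5% were overlapped by OySyNyK alone and 4.55% by OSNK alone, and in the lowest 25% 10.9% and 8.63%. The iPSC peaks met by OSNK alone had a median score of 66.4 and width of 578 bp, close to the 66.7 and 606 bp of those met by neither list. The medians were 80.8 and 715 bp for OySyNyK alone and 81.3 and 717 bp for both. Of the 65776 MEF peaks, 13.6% were overlapped by OSNK alone, 8.65% by OySyNyK alone, 27.7% by both and 50.0% by neither. These shares of the iPSC and MEF lists used the full day 5 lists, 92762 OSNK and 70592 OySyNyK peaks. A longer list meets more peaks, and the part of list length in these shares was not tested. The MEF share for OSNK alone was 14.9% in the best-scoring 25% of the MEF list and 12.1% in the lowest. For OySyNyK alone it was 8.34% and 8.77%.

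In both methods the specific share of the list was highest on day 5, and on each of the 3 days it was higher with OSNK. It was 36.0% on day 1, 40.3% on day 3 and 53.3% on day 5 with OSNK, and 24.8%, 38.0% and 38.8% with OySyNyK. The lists held 116302, 89497 and 92762 peaks with OSNK, and 100951, 93694 and 70592 with OySyNyK. On day 3 the median peak width was 911 bp with OSNK and 680 bp with OySyNyK. With equal numbers at day 5 the shares were 46.5% and 46.1%. Days 1 and 3 were not compared at equal numbers, and the part of list length and width was not tested. The iPSC overlap of shared peaks rose over the same days, from 15.0% to 23.4% and 30.4% with OSNK. That of OySyNyK-specific peaks was 15.5%, 18.8% and 28.8%, and that of OSNK-specific peaks 4.69%, 6.71% and 7.43%. The difference between the specific sets was thus widest on day 5 among the 3 days, with no replicate to test it.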

How the data were processed

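5hmC-captured DNA of 8 mouse samples was analysed, with 1 library in each group as given by the sample titles. Per the submitters' processing notes, reads were handled with Bowtie and MACS. Versions, settings and a control are not stated in these notes. The builds named there, hg18 and NCBI36, are human, while the lists run over chromosomes 1 to 19 and X and pass the last gene of mouse GRCm38 on 10 of 20 chromosomes. The files are peak lists called per sample, and their only measurement is the score of each peak as deposited by the authors. The lowest score, 50, stands for a p-value of 1e-05. Reads per library are unknown, so the depth and its effect on list length were not measured. Peaks did not overlap within a list.

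Peaks were intersected in Python 3.11.15 (pandas 2.3.3, numpy 2.4.6, scipy 1.17.1), and bedtools 2.31.1 gave the same number of overlapped peaks in 14 of 14 comparisons. The code was tested on simulated data. Figures were drawn with matplotlib 3.10.9. A peak was first seen in the earliest of MEF, day 1, day 3 and day 5 of its own method with an overlapping peak. Distances run between the nearest edges.

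The compared sets, score classes and regions were chosen with earlier results of these data known. Named are, per method, the 5 best-scoring specific peaks at least 10 kb from the other day 5 list and without a peak of the other method on days 1 and 3, the 5 regions of 100 kb with the largest excess of specific peaks, and the 3 longest runs. Peaks were not assigned to genes, and the planned gene lists were not used, because no annotation of the lists' assembly was used here. Alternatives were equal numbers of peaks at day 5 (70592) and in all lists (54938), 500-bp peaks, a minimum overlap of 50% of its width, scores of at least 100, no peak of the other method within 1 kb, and autosomes only. Equal numbers of 500-bp peaks, the best 5000 to 40000 peaks, and the counts of named regions under other settings were added after seeing the data.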

Additional observations from a re-analysis of the deposited data

How the results depend on the processing

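The order of the methods was the same under all 8 alternatives for the specific share, the iPSC and MEF overlap, the share first seen on day 5 and the share with an earlier peak of the other method. With equal numbers the specific shares were nearly tied. This follows from overlaps that mostly join 1 peak with 1 peak, so the order of the specific shares there says little about the methods. The order was the same under 6 of 8 for width, which is equal by construction with 500-bp peaks, and under 5 of 8 for the distance to shared peaks. Values are given in the order OSNK specific share, OySyNyK specific share, iPSC overlap of OSNK-specific and OySyNyK-specific peaks with their difference, and OSNK-specific and OySyNyK-specific peaks first seen on day 5. Equal numbers at day 5 gave 46.5% and 46.1%, 8.03% and 28.5% (20.5 points), 23.0% and 38.4%. Equal numbers in all lists gave 47.1% and 46.7%, 9.63% and 32.0% (22.4 points), 33.3% and 48.8%. Peaks of 500 bp gave 55.9% and 42.1%, 7.49% and 27.3% (19.8 points), 33.0% and 42.4%. A minimum overlap of 50% of its width gave 56.2% and 41.9%, 5.99% and 26.4% (20.4 points), 30.4% and 43.1%. Scores of at least 100 gave 59.7% and 38.7%, 3.34% and 21.8% (18.5 points), 24.4% and 36.5%. Leaving out peaks within 1 kb of the other method gave 48.2% and 33.4%, 6.97% and 29.4% (22.4 points), 31.3% and 43.2%. Equal numbers of 500-bp peaks, added after seeing the data, gave 50.3% and 50.3%, 9.68% and 29.9% (20.2 points), 37.7% and 50.2%. Autosomes alone moved each of these by less than its interval. The causes of these shifts were not tested. No paired analysis was possible because each group had 1 library. List length, unknown depth and the absence of replicates limit every share, and the iPSC list is of the OySyNyK method only.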
